A study of Mus musculus with 12 samples.

Results

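This comparison set the liver response to 14 days of hydrogen water against the liver response to 1 day of magnesium hydride (MgH2), in the same strain of obese diabetic mice. It rested on 6 of the 12 two-colour microarrays of the series, 3 for each treatment. The measure was the log2 ratio of Cy5 to Cy3 signal on each array, that is, H2-treated liver over control liver, and the mean of the 14-day arrays minus the mean of the 1-day arrays is called the difference below. Probes were taken where both channels were well above background on all 6 arrays, which left 18796 of the 39429 probes on the array. Of these, 18794 had a value on at least 2 arrays of each treatment and were tested, and 51 members lacked a value on an array. They covered 11694 named genes.

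All livers came from male db/db mice, 8 weeks old by the labels, which lack a functional leptin receptor and become obese and diabetic. For 14 days, mice drank water with dissolved hydrogen (0.8 mM) freely, and their controls drank the same water after degassing. For 1 day, mice received MgH2, a solid that releases H2 in the stomach, by gavage, and their controls received Mg(OH)2. The labels give the MgH2 dose as 0.9 mg/kg once a day, whereas the methods describe larger doses, and the dose used on these arrays was not settled here. Each channel of an array held a mixture of liver RNA from 3 mice. No mouse or control mixture served both treatments.

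Between the 2 groups of arrays, the route, the carrier, the control, the length of treatment, the slide and the version of the image software all changed together, so that their parts in any difference cannot be told apart. Dyes were not swapped: control RNA carried Cy3 and H2-treated RNA carried Cy5 on every array. A dye difference of a probe that was the same on all arrays entered each group mean but not the difference. The 6 arrays had 52.6% to 56.5% of their spots above background in both channels, and no spot was saturated. The ratios of the 14-day arrays correlated across probes at r of 0.32 to 0.59, and those of the 1-day arrays at 0.11 to 0.45, with the lowest value between replicates 1 and 3 at 1 day. The 11 hepatocyte markers were all above background on all 6 arrays. At unadjusted P under 0.05, 1 of them was higher and 3 were lower at 14 days (Apoa1, Serpina1c and Apoc3), none passed the correction, and Apoa1, the main protein of high-density lipoprotein, differed by -0.71 (adjusted P = 0.153, and 0.0480 with a block on the replicate number). Of 96 markers of 9 other cell types, 56 were, and none of the 56 differed at adjusted P under 0.05 (1 higher and 5 lower at unadjusted P under 0.05). Over all tested probes, 7.11% were higher and 5.49% lower at unadjusted P under 0.05 by limma. In bulk liver RNA, fewer cells of a type and less RNA per cell cannot be told apart.

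H2 is given as a gas dissolved in water or made from a hydride in the stomach, and reaches the liver with the portal blood. The liver handles fat in a set of linked programmes. The nuclear receptor PPARα switches on genes that carry fatty acids into mitochondria and peroxisomes and oxidise them, SREBP factors switch on the enzymes that build cholesterol and fatty acids, and growth hormone pulses, through STAT5, set the male or female pattern of many liver genes in mice. The unfolded protein response switches on chaperones of the endoplasmic reticulum through the factors ATF6 and XBP1, which act at the endoplasmic reticulum stress element (ERSE) of their promoters.

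Few single genes differed between the 2 treatments after correction for the number of probes. In limma's fit of all 12 arrays, 10 probes differed at adjusted P under 0.05 (0.0532% of those tested), of which 6 were higher at 14 days (0.0319%) and 4 lower (0.0213%). Among them were Dcbld1, Zfp580 and Pmm1 on the higher side, Il17d, Mpzl3, Lepr and Hcn2 on the lower side, and 2 higher probes without a gene name. All were below 2-fold. Their calls rested on the spread shared with the 3- and 7-day arrays: with the 6 arrays alone, no probe was called by limma, although 1289 were higher and 1111 lower at unadjusted P under 0.05. Leaving out any 1 of the 6 arrays left 0 to 2 called probes, and only Il17d among the 10 was kept, without MgH2 1 day replicate 2. The fit that blocked on the replicate number called 166 probes (0.883%), 71 higher (0.378%) and 95 lower (0.505%), including all 10. The labels do not say what this number marks, and it was taken as a pair on the basis of these data alone. With the 6 arrays alone, the same block called no probe. Calls with the block, here and below, are therefore given as an alternative and not as support.

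At unadjusted P under 0.05, 2367 probes differed (12.6%), of which 1336 were higher (7.11%) and 1031 lower (5.49%). The 3 arrays of one treatment did not overlap the 3 of the other at 2080 probes on the higher side (11.1%) and at 1664 on the lower side (8.88%). The median difference over all tested probes was 0.013, with a median SE of 0.093, on the log2 scale. Only 53 probes differed by more than 2-fold, 24 higher and 29 lower, and none of them was among the 10. In simulated data with this spread, a 1.5-fold difference in 200 probes was recovered at 67.5% of them.

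Taken against 0, the 14-day ratio passed the test at 2224 probes (11.8%), 873 higher (4.65%) and 1351 lower (7.19%). The 1-day ratio passed at 2470 probes (13.1%), 733 higher (3.9%) and 1737 lower (9.24%). With each array centred on its median, the split turned to 1147 higher and 856 lower at 14 days and to 1081 higher and 893 lower at 1 day, so no direction is drawn from it. Both ratios passed the test upward at 387 probes and downward at 587, while 4 were higher at 14 days and lower at 1 day and 11 the reverse. Across probes, the mean ratios of the 2 treatments correlated at r = 0.33, a description in which each probe's own dye difference is shared. Below, a gene that rose or fell at a treatment is one whose mean ratio passed the test against 0. That mean holds the dye difference too, so no effect of either treatment alone is read from it.

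**Figure D1:**
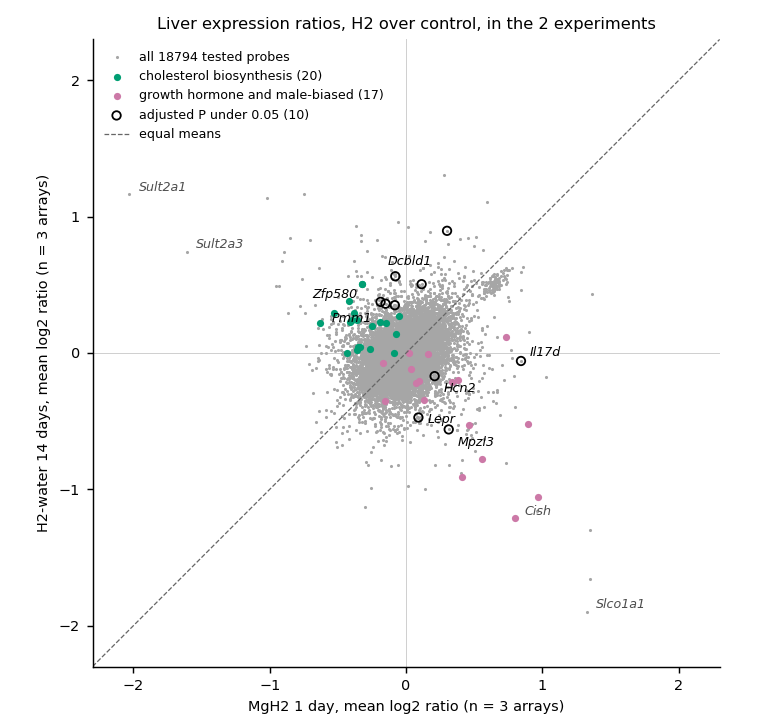
Mean log2 ratio (H2 over control) at 14 days of H2-water on the vertical axis against that at 1 day of MgH2 on the horizontal axis, 1 point per probe (18794), each mean over 3 arrays. Open circles mark the 10 probes at adjusted P under 0.05, filled points the cholesterol biosynthesis list (20) and the growth hormone and male-biased list (17), and the dashed line equal means; the former lie above the line, and all but 1 of the latter lie below it.

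Among signalling genes, the probe of Il17d, which encodes a cytokine of the interleukin-17 family, had log2 ratios of -0.10, -0.064 and -0.011 on the 14-day arrays and of 0.86, 0.68 and 0.99 on the 1-day arrays. The groups did not overlap, and only the 1-day mean passed the test against 0 (adjusted P = 1.39e-05, against 0.594 at 14 days). The difference was -0.90 (SE 0.088, limma adjusted P = 0.0205), a 1.87-fold lower ratio at 14 days. The second Il17d probe on the array gave a difference of 0.027 (adjusted P = 0.954). The difference of the first probe shrank to -0.34 after normexp background correction and loess, where it remained called (adjusted P = 0.0491).

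Lepr, the leptin receptor gene that carries the db mutation in these mice, had ratios of -0.46, -0.50 and -0.45 at 14 days. At 1 day the ratios were 0.19, 0.027 and 0.056. Here the 14-day arrays were all below the control and the 1-day arrays all slightly above it. The difference was -0.56 (SE 0.067, adjusted P = 0.0250), and it was -0.56 under normexp and loess too. Of the 4 Lepr probes on the array, 1 was above background on all 6 arrays.

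Among genes of membrane proteins, Mpzl3, of the myelin protein zero family, had ratios of -0.47, -0.64 and -0.58 at 14 days and 0.35, 0.28 and 0.31 at 1 day. The groups lay on opposite sides of 0, with a difference of -0.87 (SE 0.092, adjusted P = 0.0205). This was a dim probe: its Cy3 signal was 35 to 60 units with a local background of up to 31.5, and the difference dropped to -0.15 under normexp and loess, where it was not called. Hcn2, a cation channel opened by hyperpolarisation, had a bright probe, with ratios of -0.15, -0.18 and -0.18 at 14 days and 0.15, 0.20 and 0.28 at 1 day. Its difference was -0.38 (SE 0.050, adjusted P = 0.0358), and its second probe gave -0.26 (adjusted P = 0.206). The 2 probes were far apart in level, at a log2 Cy3 share of 7.96 on the called probe and 1.84 on the second in the 14-day controls. Which of them reflects Hcn2 was not tested.

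Dcbld1, a transmembrane protein gene, had ratios of 0.58, 0.57 and 0.54 at 14 days against -0.085, -0.17 and 0.016 at 1 day. The 14-day arrays were well above the control and the 1-day arrays close to it. The difference was 0.64 (SE 0.089, adjusted P = 0.0496), while its second probe gave 0.38 (adjusted P = 0.481).

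Zfp580, a zinc finger gene, had ratios of 0.46, 0.25 and 0.42 at 14 days and -0.24, -0.083 and -0.24 at 1 day. The difference was 0.56 (SE 0.069, adjusted P = 0.0250). Pmm1, a phosphomannomutase that makes mannose 1-phosphate for glycosylation, had ratios of 0.47, 0.29 and 0.32 at 14 days and -0.10, -0.20 and -0.15 at 1 day on its dimmer probe. Zfp580 and this probe of Pmm1 passed the test against 0 in both treatments, in opposite directions. Pmm1 differed by 0.51 on the dimmer probe (adjusted P = 0.0231). Its brighter probe differed by 0.45 and was not called (adjusted P = 0.096, and 0.0451 with the replicate block). Against 0, the brighter probe passed at 1 day (adjusted P = 0.0245) but not at 14 days (0.0568). The difference of the dimmer probe was 0.28 under normexp and loess.

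The unnamed probes were A_55_P2013029, with a difference of 0.60 (adjusted P = 0.0250), and A_51_P498257, with 0.43 (adjusted P = 0.0358). The former was above the control on all 6 arrays, at 0.96, 0.85 and 0.89 at 14 days and 0.19, 0.41 and 0.30 at 1 day. Beside these calls stood the level of the control livers. The Cy3 share of 8 of the 10 probes was more than 2-fold higher in the 14-day controls than in the 1-day controls, up to 4.26 on the log2 scale for A_55_P2013029, 3.40 for Il17d and 3.19 for Lepr. Over all tested probes, 17.1% differed by more than 2-fold in the control channel. The part of this in the calls was not tested.

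**Figure D2:**
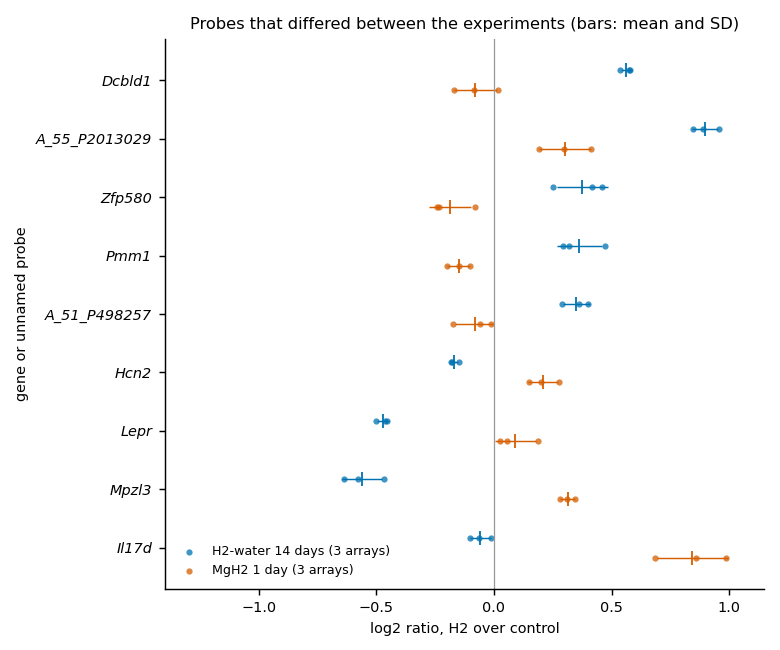
Log2 ratio (H2 over control) of 9 of the 10 probes at adjusted P under 0.05, with each array as a point, the mean as a tick and the SD as a bar, for 3 arrays of H2-water 14 days and 3 of MgH2 1 day. No point of one group overlaps the other in any row, and Il17d alone is near 0 at 14 days and far above it at 1 day.

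None of the 33 gene lists held a member that was called in this contrast. The lists are therefore given by the number of members that passed unadjusted P under 0.05, beside the background shares of 7.11% higher and 5.49% lower, and by their median difference, beside the 0.013 of all probes. Each gene was represented by its brightest probe. Apart from the genes picked out by the study, the members named below, and the single genes of large difference, were chosen after their values were seen.

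The genes of cholesterol biosynthesis had higher ratios at 14 days of H2-water than at 1 day of MgH2. All 20 listed genes were measured, and all 20 differences were above 0. Of the 20, 17 passed unadjusted P under 0.05 (7.11% of all probes on the higher side). In 16 the groups did not overlap (11.1% of all probes on the higher side). The median difference was 0.44. The list's median ratio was 0.30, 0.071 and 0.23 on the 14-day arrays and -0.20, -0.34 and -0.41 on the 1-day arrays. These medians lay on opposite sides of 0. Dyes were not swapped and few members passed against 0, so no side is read for either treatment alone. No single member passed the correction, the lowest adjusted P being 0.110. The median stayed between 0.44 and 0.51 when any 1 array was left out. The control livers differed in level by a median of -0.14 on the log2 scale over the 20 genes, lower in the 14-day controls. The part of this in the result was not tested.

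Nsdhl, a sterol dehydrogenase that removes a methyl group, had ratios of 0.30, 0.16 and 0.27 at 14 days and -0.36, -0.36 and -0.35 at 1 day. The groups were far apart for their spread, with a difference of 0.60 (SE 0.12, adjusted P = 0.110). Cyp51, which demethylates lanosterol, had ratios of 0.59, 0.33 and 0.61 at 14 days against -0.42, -0.27 and -0.28 at 1 day, a difference of 0.83 (adjusted P = 0.175) that was 0.49 under normexp and loess. Sqle, the squalene epoxidase, differed by 0.85 (adjusted P = 0.255), and Hmgcs1, an early synthase of the pathway, by 0.68 (adjusted P = 0.263). Against the Mg(OH)2 control alone, 4 of the 20 members fell at 1 day, where 9.24% of all probes did, among them Nsdhl (adjusted P = 0.0233), Dhcr7 (0.0176) and Hsd17b7 (0.0244). The fourth was Mvk (0.0319). Against the degassed water, 1 of the 20 rose at 14 days, Tm7sf2 (adjusted P = 0.025), a share near the 4.65% of all probes.

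**Figure D3:**
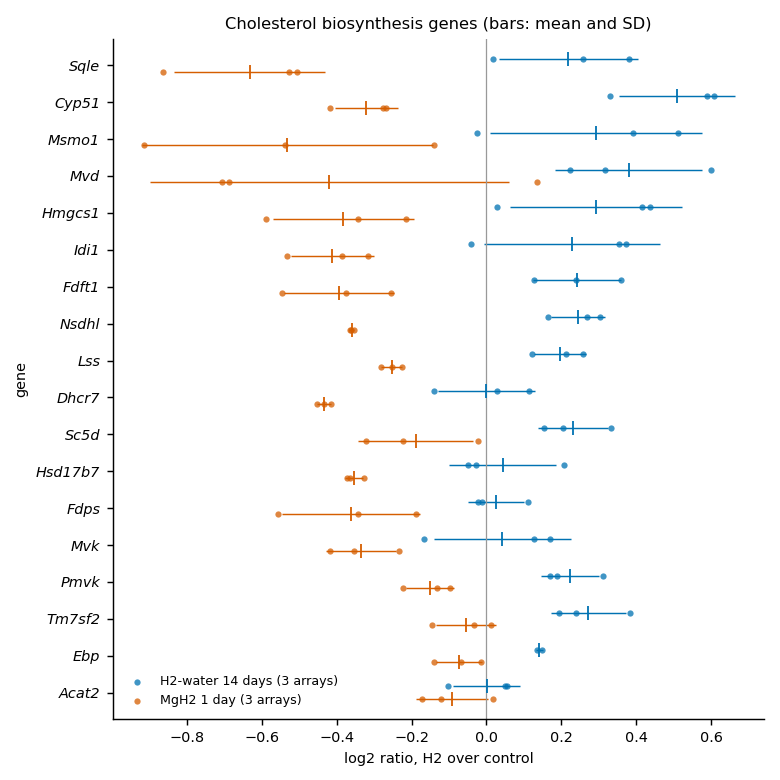
Log2 ratio (H2 over control) of 18 of the 20 cholesterol biosynthesis genes, with each array as a point, the mean as a tick and the SD as a bar, ordered by the difference. The 14-day points lie above the 1-day points for 16 genes; the points of Acat2 overlap, and Ebp lacks a value on an array.

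The regulators of the pathway moved less. Of 11 measured genes of sterol regulation and uptake, 3 passed unadjusted P under 0.05, all higher, with a median difference of 0.11 that ran from 0.029 to 0.20 when single arrays were left out (0.029 without H2-water 14 days replicate 3, 0.20 without H2-water 14 days replicate 2). Tmem97, a sterol-responsive membrane protein, differed by 0.40 (adjusted P = 0.163, and 0.0498 with the replicate block). Srebf2, the main activator of the pathway, had a difference of 0.11 (adjusted P = 0.797), which ran from -0.0010 without H2-water 14 days replicate 3 to 0.20 without replicate 2 of that group.

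Fatty acid synthesis showed the same side with more spread. Of 21 lipogenic genes, 5 passed unadjusted P under 0.05, all higher, with a median difference of 0.25. That median was 0.41 without MgH2 1 day replicate 1 and 0.063 without replicate 2 of that group. The members that passed were the desaturases Fads1 and Fads2, the elongase Elovl5, the acetate-activating enzyme Acss2 and the triglyceride-forming enzyme Dgat1. Fads1 had ratios of -0.011, 0.21 and 0.19 at 14 days and -0.55, -0.35 and -0.41 at 1 day. Its difference of 0.57 (SE 0.11) was not called (adjusted P = 0.108), but was called with the replicate block (0.0355) and under normexp and loess (0.0496). Fads2 and Acss2 were called with the block alone (adjusted P = 0.0480 and 0.0494). Fasn, the fatty acid synthase, had 1-day ratios of 0.98, -0.95 and -0.29, and its groups overlapped (difference 0.49, SE 0.52, adjusted P = 0.756, from 0.063 without MgH2 1 day replicate 2 to 1.03 without replicate 1 of that group).

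The genes of fatty acid metabolism that the study had picked out at 14 days had higher ratios at 14 days than at 1 day. They were chosen on the 14-day arrays, so their direction here is not independent evidence. All 12 differences were above 0, 10 passed unadjusted P under 0.05, and none passed the correction. In 11 the groups did not overlap (11.1% of all probes on the higher side). The median ratio of the list was 0.29, 0.16 and 0.26 on the 14-day arrays and 0.022, -0.10 and -0.038 on the 1-day arrays. Of the 12, 7 rose at 14 days against 0, where 4.65% of all probes did. None rose at 1 day, where 3.9% of all probes did, so that nothing is read from that 0. The control livers differed in level by a median of -0.37 on the log2 scale over the 12 genes, lower in the 14-day controls. The part of this in the result was not tested.

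Aldh3a2, a fatty aldehyde dehydrogenase, had ratios of 0.36, 0.21 and 0.27 at 14 days and 0.030, -0.11 and 0.021 at 1 day. Its difference was 0.30 (SE 0.063, adjusted P = 0.122), and it was called under normexp and loess (adjusted P = 0.0396). Aldh1a1, a retinaldehyde dehydrogenase, differed by 0.24 (adjusted P = 0.129), and Cpt1a, which starts the entry of fatty acids into mitochondria, by 0.19 (adjusted P = 0.255). On the other tested Cpt1a probe the groups overlapped, with a difference of 0.13 (adjusted P = 0.613) and a 14-day mean of -0.082. Of the peroxisomal thiolases, Acaa1b differed by 0.47 (adjusted P = 0.223) and Acaa1a by 0.23 (0.326). The omega-hydroxylases Cyp4a31, Cyp4a10 and Cyp4a32 differed by 0.45 (adjusted P = 0.188), 0.42 (0.215) and 0.34 (0.175); these paralogs are near-identical, so that their probes may share targets. Aldh1l1, a folate enzyme, differed by 0.28 (adjusted P = 0.332). The enoyl-CoA isomerases Eci1 and Eci2 had differences of 0.18 (adjusted P = 0.277, and 0.12 under normexp and loess) and 0.15 (0.445).

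Of 8 measured regulators and related genes named by the study, 2 passed unadjusted P under 0.05, both higher and without overlap, and none passed the correction. These were Fads2, given above, with a difference of 0.42 (SE 0.091), and Dbi, the acyl-CoA binding protein, with 0.24 (SE 0.085, adjusted P = 0.291), which was 0.12 under normexp and loess. Ppargc1a, which encodes the coactivator PGC-1α, had ratios of 0.44, -0.61 and 0.071 at 14 days and -0.010, 0.24 and -0.12 at 1 day. The groups overlapped fully, with a difference of -0.069 (SE 0.24, adjusted P = 0.942). On the other tested Ppargc1a probe the groups also overlapped, with a difference of 0.22 (adjusted P = 0.826). Ppara, the receptor gene, was above the control on all 14-day arrays, at 0.22, 0.25 and 0.30, but at 0.50, -0.039 and -0.31 on the 1-day arrays (difference 0.21, adjusted P = 0.756, from 0.030 without MgH2 1 day replicate 3 to 0.44 without replicate 1 of that group). Foxo1, a transcription factor restrained by insulin, differed by -0.12 (adjusted P = 0.829), and the kinase genes Akt1 and Akt2 by -0.019 (0.945) and -0.0054 (0.974). Apoa2, an apolipoprotein of high-density lipoprotein, differed by 0.040 (adjusted P = 0.901), and by 0.15 on its other tested probe (0.538). Fgf21, a liver hormone, was not above background on all 6 arrays and was not tested.

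In the wider oxidation lists, 7 of 21 mitochondrial genes passed unadjusted P under 0.05 on the higher side and 1, Acsl1, on the lower side, with a median difference of 0.12. Of 19 peroxisomal genes, 6 passed, all higher, with a median of 0.056 (0.12 without MgH2 1 day replicate 3). Of 27 further PPARα targets, 7 passed, all higher, with a median of 0.19 (0.091 without MgH2 1 day replicate 2). Ehhadh, the bifunctional enzyme of peroxisomal oxidation, had ratios of 0.30, 0.28 and 0.27 at 14 days and -0.094, -0.27 and 0.0025 at 1 day. Its difference of 0.40 (SE 0.065) missed the threshold (adjusted P = 0.0801), and passed it with the replicate block (0.0451) and under normexp and loess (0.0161). Tested against 0, the mean ratio of Ehhadh was above 0 at 14 days (adjusted P = 0.00506) and did not pass at 1 day (0.111).

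Acot2, a mitochondrial acyl-CoA thioesterase, had a difference of 0.77 (adjusted P = 0.136, and 0.49 under normexp and loess), with ratios of 0.15, 0.14 and 0.35 at 14 days and -0.50, -0.60 and -0.55 at 1 day. Tested against 0, its mean ratio was below 0 at 1 day (adjusted P = 0.0176) and did not pass at 14 days (0.291). Vnn1, a pantetheinase, lay above the control on all 6 arrays and differed by 0.29 (adjusted P = 0.179). Among 37 genes of oxidative phosphorylation, 32 differences were above 0 and 8 passed unadjusted P under 0.05, but they were small, with a median of 0.051 (0.080 without MgH2 1 day replicate 1). Cyc1, the cytochrome c1 of complex III, was the nearest to the threshold, with a difference of 0.23 (adjusted P = 0.096, and 0.0487 with the block), and Atp5b, a catalytic subunit of ATP synthase, differed by 0.20 (adjusted P = 0.158).

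**Figure D4:**
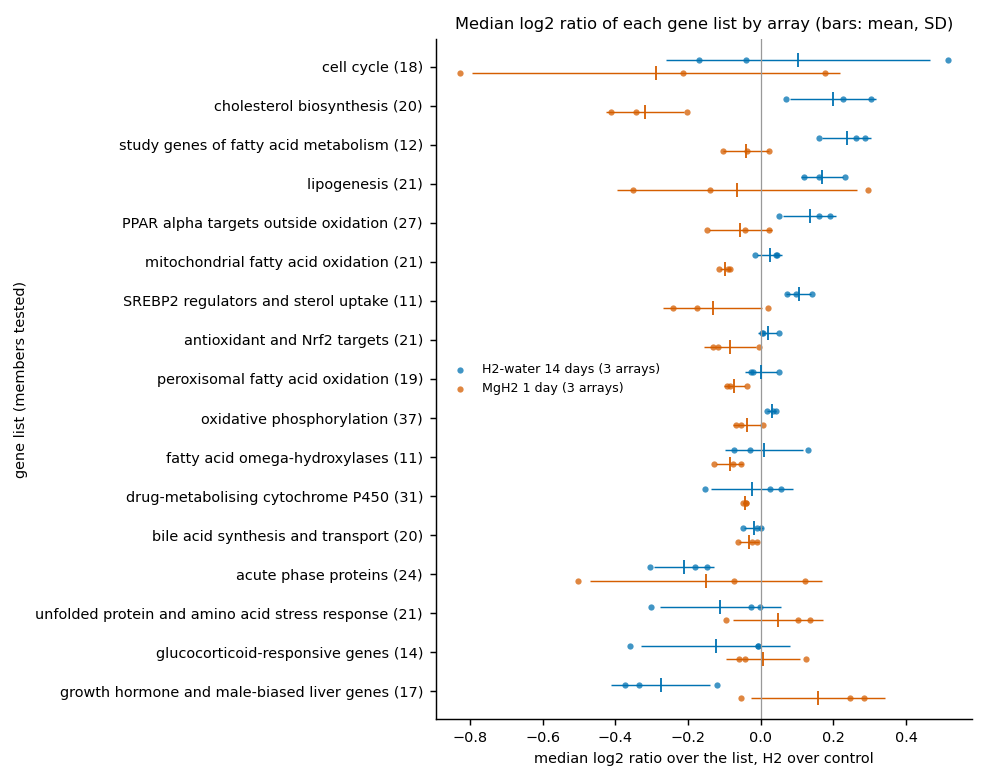
Median log2 ratio (H2 over control) over the tested members of 17 gene lists, 1 point per array, with the mean as a tick and the SD of the 3 medians as a bar; the number of members stands in brackets. The cholesterol biosynthesis medians of the 14-day arrays (0.071 to 0.30) lie above all those of the 1-day arrays (-0.41 to -0.20), and the cell cycle medians spread over both groups (-0.83 to 0.52).

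On the lower side stood a list that joined genes of the growth hormone axis with genes that are higher in male mouse liver. Not every member is both. Of 20 listed genes, 17 were tested. All but 1 of the 17 differences were below 0, 6 passed unadjusted P under 0.05, all lower, and none passed the correction. The median difference was -0.55, and -0.33 without MgH2 1 day replicate 3. The median ratio of the list was -0.37, -0.12 and -0.34 on the 14-day arrays and -0.055, 0.24 and 0.28 on the 1-day arrays. With the replicate block, 2 members were called lower, C6 (adjusted P = 0.0308) and Serpina1e (0.0486).

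Cish, a feedback inhibitor that STAT5 induces, had ratios of -0.62, -0.77 and -2.25 at 14 days and 1.20, 0.80 and 0.40 at 1 day. The groups lay on opposite sides of the control, but the spread was wide and the difference of -2.01 (SE 0.82) was not called (adjusted P = 0.352). Mup20, a male urinary pheromone protein, had ratios of -1.06, -0.18 and -0.32 at 14 days and 0.46, 0.97 and 1.24 at 1 day, with a difference of -1.41 (adjusted P = 0.186). Hsd3b5, a male-specific steroid enzyme, overlapped between the groups, with a difference of -2.02 (adjusted P = 0.397). This was -1.05 without MgH2 1 day replicate 2, -1.34 without H2-water 14 days replicate 1 and -1.04 under normexp and loess. Major urinary protein genes are near-identical, and their probes may share targets. Igf1, the liver hormone that growth hormone induces, differed by only -0.15 (adjusted P = 0.402), and the receptor gene Ghr by -0.026 (adjusted P = 0.888).

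Among single genes whose groups did not overlap, the differences of Slco1a1 and Sult2a1 were the largest in size. Slco1a1, an organic anion transporter of male liver, had ratios of -2.32, -1.35 and -2.02 at 14 days and -1.06, 2.77 and 2.26 at 1 day. The groups did not overlap, yet the first 1-day array lay far from the other two. Its difference was -3.22 (SE 1.20, adjusted P = 0.308), and adjusted P was 0.0487 with the replicate block. Sult2a1, a sulfotransferase of steroids and bile acids that is higher in female mouse liver, had ratios of 1.37, 0.75 and 1.37 at 14 days and 0.11, -1.45 and -4.75 at 1 day. Its difference was 3.19 (SE 1.70, adjusted P = 0.484), and 1.83 without MgH2 1 day replicate 3. Sult2a paralogs are near-identical, and Sult2a3 followed with 2.35 (adjusted P = 0.399, and 1.56 under normexp and loess).

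Hao2, a hydroxy acid oxidase that is also higher in females, had ratios of 1.43, 0.41 and 0.70 at 14 days and -0.31, -0.95 and -1.28 at 1 day. Its difference was 1.69 (SE 0.42, adjusted P = 0.164, and 0.0487 with the block). Cyp2b13, a female-biased cytochrome P450, differed by 1.20 (adjusted P = 0.237, and 0.0308 with the block). Slc22a27, an organic anion transporter, had ratios of 0.90, 0.31 and 0.65 at 14 days and -0.31, -0.91 and -0.69 at 1 day, a difference of 1.26 (SE 0.23, adjusted P = 0.0921). It was called with the replicate block (adjusted P = 0.0487) and under normexp and loess (0.0229). The labels give all mice as male. The control livers also differed in level between the experiments here, by a median of 0.81 on the log2 scale over the 17 listed genes, higher in the 14-day controls, and the part of this in the result was not tested.

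**Figure D5:**
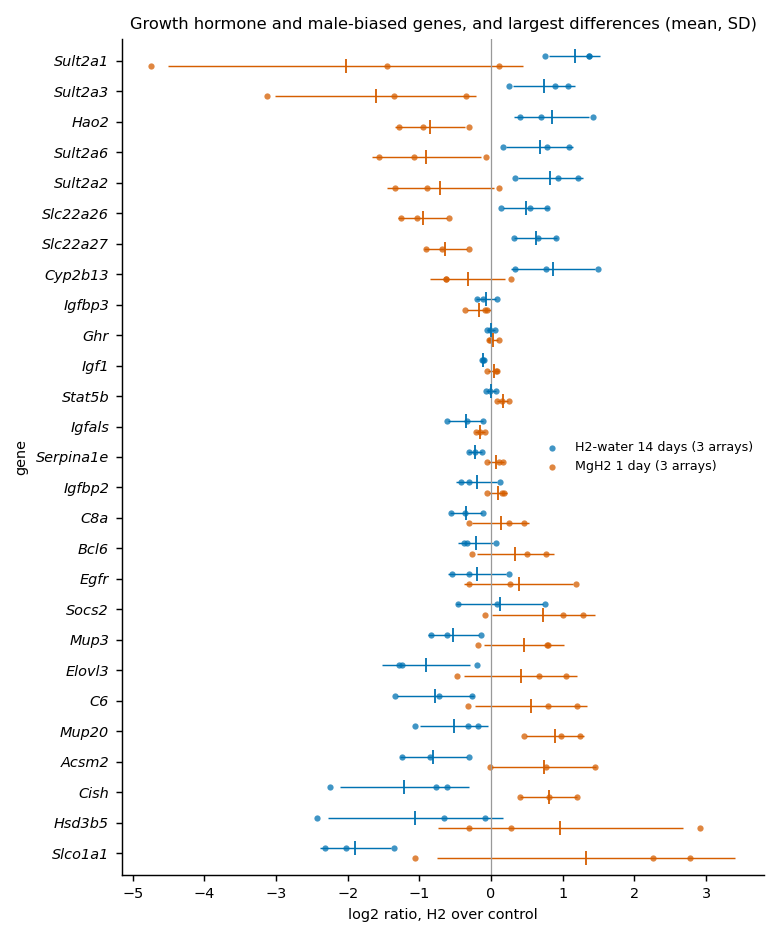
Log2 ratio (H2 over control) of the 17 growth hormone and male-biased genes, with the 8 largest positive differences without overlap above them and Slco1a1 and Acsm2 among them, with each array as a point, the mean as a tick and the SD as a bar. Sult2a1 and Slco1a1 have the widest 1-day points (-4.75 to 0.11 and -1.06 to 2.77), so large differences go with large SDs.

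Other genes with large and separate differences had no common list. Ankrd2, a muscle ankyrin repeat protein, had ratios of 0.91, 0.39 and 0.73 at 14 days and -0.37, -0.26 and -0.52 at 1 day (difference 1.06, SE 0.18, adjusted P = 0.0831). Omd, a small leucine-rich matrix proteoglycan, had ratios of -0.28, -0.71 and -0.56 at 14 days and 0.74, 0.14 and 0.64 at 1 day (difference -1.02, SE 0.17, adjusted P = 0.0801). Both were called with the replicate block (adjusted P = 0.0486 and 0.0308) and under normexp and loess (0.0345 and 0.016), where the difference of Ankrd2 was 0.41 and that of Omd -0.69. Tested against 0, Ihh, a hedgehog ligand, had a mean ratio below 0 at 14 days (adjusted P = 0.00733) and did not pass at 1 day (0.651). Its difference was -1.14 (adjusted P = 0.135), and -0.48 under normexp and loess. Myc, a growth-promoting transcription factor, had a mean ratio below 0 at 14 days (adjusted P = 0.0106). Its difference was -0.99 (adjusted P = 0.188), which was -0.65 without H2-water 14 days replicate 3 and -0.61 under normexp and loess.

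In the list of the unfolded protein and amino acid stress response, 15 of 21 measured genes had a difference below 0 and 6 above it. Of the 21, 5 passed unadjusted P under 0.05, all lower (Dnajc3, Pdia6, Calr, Atf4 and Asns), and none passed the correction. The median difference was -0.12, and it ran from -0.22 without MgH2 1 day replicate 1 to -0.049 without H2-water 14 days replicate 1. Dnajc3, a co-chaperone that also restrains the kinase PERK, had ratios of -0.32, -0.11 and -0.17 at 14 days and 0.12, 0.23 and 0.26 at 1 day. Tested against 0, its mean ratio was below 0 at 14 days (adjusted P = 0.0276) and above 0 at 1 day (0.0243). Its groups did not overlap. Its difference was -0.40 (SE 0.068, adjusted P = 0.0831), called with the replicate block (0.048) and under normexp and loess (0.00736).

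Pdia6, a disulfide isomerase, differed by -0.31 (adjusted P = 0.209), and Calr, the calcium-binding chaperone calreticulin, by -0.24 (adjusted P = 0.231). Tested against 0, both had a mean ratio below 0 at 14 days (adjusted P = 0.0297 and 0.0136) and neither passed at 1 day (0.583 and 0.865). Atf4, the transcription factor of the amino acid response, differed by -0.19 (adjusted P = 0.209), and its mean ratio was above 0 at 1 day (0.00132). Asns, its target asparagine synthetase, had a mean ratio below 0 at 14 days (adjusted P = 0.0248). It differed by -0.59 (adjusted P = 0.387), which was -0.36 without MgH2 1 day replicate 3 and -0.19 under normexp and loess. The promoters of Dnajc3, Pdia6 and Calr are shown because these 3 members passed unadjusted P under 0.05 and hold an exact ERSE. That motif is the binding site of ATF6 and XBP1 with NF-Y. Other list members, given below, hold it without passing, and its part in the differences was not tested. Each run is the 250 bases before the RefSeq start in build GRCm38.p6, 5′ to 3′ on the strand of the gene, with the motif in capitals.
Dnajc3 (chr14:118937682-118937931, + strand): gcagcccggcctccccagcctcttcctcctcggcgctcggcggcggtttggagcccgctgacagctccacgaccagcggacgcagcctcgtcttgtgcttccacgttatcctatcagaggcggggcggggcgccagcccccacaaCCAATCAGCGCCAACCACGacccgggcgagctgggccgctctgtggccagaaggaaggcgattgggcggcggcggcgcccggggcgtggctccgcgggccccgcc
Pdia6 (chr12:17266339-17266588, + strand): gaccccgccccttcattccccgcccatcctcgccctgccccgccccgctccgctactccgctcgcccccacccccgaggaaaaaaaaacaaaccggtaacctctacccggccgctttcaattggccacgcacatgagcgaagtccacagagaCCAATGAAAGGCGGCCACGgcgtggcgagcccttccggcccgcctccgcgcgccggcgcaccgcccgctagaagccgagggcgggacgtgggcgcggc
Calr (chr8:84846932-84847181, - strand): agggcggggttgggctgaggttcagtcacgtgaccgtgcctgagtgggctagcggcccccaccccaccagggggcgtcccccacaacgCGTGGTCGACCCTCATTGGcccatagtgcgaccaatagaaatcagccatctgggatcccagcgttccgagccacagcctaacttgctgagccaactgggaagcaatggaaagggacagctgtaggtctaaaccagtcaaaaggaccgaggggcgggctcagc
The motif began 105 bases before the start in Dnajc3, 98 in Pdia6 and 162 in Calr, where it lay on the opposite strand. An exact ERSE on either strand was found in 6 of the 19 list members with a promoter in the table, among them Hspa5, Hsp90b1 and Creld2. Among all 32851 windows of 250 bases before to 50 after a start, 0.119% held it. The former counts genes with the motif in any of their windows, and the latter counts windows. The list was written from general knowledge of this response, so its higher share was likely beforehand and nothing is read from it. Hspa5, the main chaperone, differed by -0.23 (adjusted P = 0.522). The single exact form of the sterol element (SRE) that was searched was found in 0.0913% of all windows. At that share, its absence from the 15 cholesterol biosynthesis genes in the table was likely beforehand. Variant forms were not searched, so nothing is read from that absence. CACGTG was found in 3 of the 15, Dhcr7, Hsd17b7 and Sc5d, against 7.15% of all windows, again a count of genes beside a share of windows.

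Other lists held members on both sides or few that passed. Among 31 drug-metabolising cytochromes P450, 2 were higher and 5 lower at unadjusted P under 0.05. Antioxidant genes controlled by Nrf2 had 7 of 21 higher and 1 lower, with a median of 0.11. Bile acid genes had 4 of 20 higher and 3 lower. Of 24 acute phase proteins, 2 were lower, and of 14 glucocorticoid-responsive genes, 2 were lower (median -0.21, but -0.0048 without H2-water 14 days replicate 2). In gluconeogenesis, the circadian clock, the immediate early genes and the heat shock proteins, 1 member passed on each side. Of 24 genes of the interferon response, 1 was higher. Of 6 tested red cell markers, 5 had a difference above 0, and the median was 0.15. Alas2, of erythroid haem synthesis, was the 1 below 0, at -0.56 (adjusted P = 0.146), while the globin genes overlapped.

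All 18 measured differences of cell cycle genes were above 0, with a median of 0.46 (0.27 under normexp and loess), and none passed unadjusted P under 0.05. The list's median ratio was -0.17, 0.52 and -0.040 on the 14-day arrays and -0.83, 0.18 and -0.21 on the 1-day arrays, which overlapped. The median difference was 0.13 without MgH2 1 day replicate 1 and 0.19 without H2-water 14 days replicate 2. Cdk1, the mitotic kinase, had a difference of 0.76 (SE 0.50, adjusted P = 0.576), called only with the replicate block (0.0451). The difference was 0.35 without MgH2 1 day replicate 1, 1.19 without replicate 2 of that group, 0.43 without H2-water 14 days replicate 2 and 0.32 under normexp and loess.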

How the data were processed

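Liver RNA was measured on two-colour Agilent mouse arrays, with control RNA in Cy3 and H2-treated RNA in Cy5. The deposited scanner files hold, per the file headers of Agilent Feature Extraction (version 10.7.3.1 for the 14-day arrays and 10.10.1.1 for the others, against 10.10.1 in the submitters' processing notes), spot intensity and the authors' dye-normalized log10 ratio. The deposited value table holds the authors' log2 ratios.

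The intensity of each channel was divided by its total, and log2 of the Cy5 share over the Cy3 share was taken. Outlier-flagged spots (160 to 244 per array) were dropped and spots of a probe averaged. Symbols came from RefSeq through accessions (26412 of 39429 probes). limma 3.58.1 in R 4.3.3 was fitted to the means of all 4 groups (8 residual degrees of freedom), with Benjamini-Hochberg adjustment over the 18794 tested probes. It was checked on simulated data. Genes were to be named from called probes without overlap, from called list members and from the genes of the study. The members and lists were chosen with earlier results of these data known. The precision is limited by the 3 arrays per group, and p-values cover the spread between pooled samples.

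Replicate numbers are in the labels, which do not say that they mark a shared batch. Deviations of same-numbered arrays correlated at 0.27, 0.19 and 0.15, so the numbers were taken as pairs on the basis of the data alone. Promoters are from RefSeq. Some single genes are not reported here, although the counts and list medians include them.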

Additional observations from a re-analysis of the deposited data

Results flagged for a closer look

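The difference between the treatments itself passed the test for 10 probes. Among these were Dcbld1 (0.64), A_55_P2013029 (0.60), Zfp580 (0.56), Pmm1 (0.51), A_51_P498257 (0.43), Hcn2 (-0.38), Lepr (-0.56), Mpzl3 (-0.87) and Il17d (-0.90), on the log2 scale and by limma.

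Some of these probes also passed the test against 0 on the arrays of 3 and 7 days of MgH2, which the comparison does not use. Il17d had mean log2 ratios of 0.89 at 3 days and 1.00 at 7 days, beside its 1-day arrays at 0.68 to 0.99. A_55_P2013029 stood at 0.28 and 0.26, and Dcbld1 at 0.24 and 0.18. At 7 days alone, Zfp580 stood at 0.23 and Pmm1 at 0.16, the opposite side from their 1-day arrays. At 3 days alone, Hcn2 stood at 0.15. Dyes were not swapped on any array, and the part of the dye in these values was not tested.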

How the results depend on the processing

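Called probes of the difference, 6 higher and 4 lower, became 6 and 8 with the log ratios as deposited, 6 and 12 with each array centred on its median, 35 and 55 with normexp and loess (9 of the 10 shared), 23 and 44 with no filter on dim probes, 41 and 68 with slide as a random block, and 71 and 95 with the replicate block. They were 0 and 0 with only the 6 arrays, with or without the replicate block. The methods' t-test gave 1278 and 1053 at P under 0.05, and 0 and 0 after Benjamini-Hochberg. Leaving out single arrays gave 0 higher and 0 to 2 lower. The slide block had a consensus correlation of -0.0816. Slide changed together with treatment between the 2 groups, so nothing is read from its higher counts.

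For 14 days against 0 (873 higher, 1351 lower), the counts were 1095 and 908 as deposited, 1147 and 856 centred, 1604 and 850 with normexp and loess, 557 and 665 with the 6 arrays, 1336 and 2219 with the replicate block, 177 and 57 with that block in the 6 arrays, 1267 and 2111 with the slide block, and 1681 and 2685 by the t-test (0 and 0 adjusted). Leaving out arrays gave 312 to 898 and 315 to 1420.

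For 1 day against 0 (733 higher, 1737 lower), they were 1069 and 894 as deposited, 1081 and 893 centred, 1275 and 719 with normexp and loess, 402 and 539 unfiltered, 465 and 780 with the 6 arrays, 1170 and 2703 with the replicate block, 129 and 26 with that block in the 6 arrays, 1141 and 2747 with the slide block, and 0 and 0 by the adjusted t-test. Leaving out arrays gave 267 to 667 and 366 to 1544. The block in the 6 arrays was chosen after seeing the data. The cause of these shifts was not tested.

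Of 1564 alternative values of 87 genes, 1380 kept direction and call, 92 lost the call and 82 gained it. The methods' t-test at unadjusted P under 0.05 counted as a call here, so the 82 include values that were not corrected. The remaining 10 reversed, all of genes far from the threshold. Leaving out single arrays, Foxo1 ran from -0.25 to 0.046 (the latter without H2-water 14 days replicate 2), Ppargc1a from -0.30 to 0.22 (0.22 without H2-water 14 days replicate 2 and 0.031 without MgH2 1 day replicate 2), Akt1 from -0.055 to 0.024 (0.022 without H2-water 14 days replicate 1 and 0.024 without MgH2 1 day replicate 2), and Akt2 from -0.022 to 0.019 (0.019 without MgH2 1 day replicate 3). Apoa2 ran from -0.0081 (without MgH2 1 day replicate 2) to 0.11, and Srebf2 from -0.0010 (without H2-water 14 days replicate 3) to 0.20. Under normexp and loess, Apoa2 was -0.021 and Pcna -0.0049. Dim probes limit the fold, as for Mpzl3.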
